A study of Rattus norvegicus with 12 samples.

Results

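The glutathione S-transferases examined were 10 genes of the rat heart, taken by their symbols from a table of 34700 genes: Gstt1, Gstt2 and Gstt3 of the theta class, Gstm1 and Gstm2 of the mu class, Gstp1 (pi), Gsta4 (alpha), Gstk1 (kappa), Gsto1 (omega) and the membrane-bound Mgst1. Gstt3 was chosen by its measured difference between the BAIBA and HFE groups, and the other 9 genes were added as family members. For that reason the BAIBA against HFE values are given as a description with no test, and the Gstt3 values in HFE against HF and in BAIBA against HF, which use the same rats, are described without a test as well.

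RNA was sequenced from the anterior wall of the left ventricle of male Sprague Dawley rats operated on at 8 weeks of age, and hearts were taken 12 weeks later. Each of the 4 groups held 3 rats. Sham rats had the operation without ligation and stayed sedentary, HF rats had heart failure after the descending branch of the left coronary artery was tied off and stayed sedentary, HFE rats had the ligation followed by 8 weeks of treadmill running for 60 min on 5 days a week, and BAIBA rats had the ligation followed by 8 weeks of gavage with 75 mg/kg of β-aminoisobutyric acid a day. Exercised muscle releases this small amino acid. In the paper's BAIBA study the Sham and HF rats were gavaged with an equal volume of water, and no gavage is described for exercised rats. The labels do not say which study the sequenced Sham and HF rats came from. Gavage and treatment cannot be told apart between BAIBA and HFE rats. The paper's Methods give the piece as taken around the infarct for the BAIBA group alone, whereas its Results say so for the HF and BAIBA groups. Neither says so for the HFE group. Treatment and sampling site therefore cannot be told apart where HFE rats are compared, nor, going by the Methods, between BAIBA and HF rats. Whole heart tissue holds many cell types, and fewer cells of a type cannot be told apart from less RNA per cell.

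Glutathione S-transferases join the tripeptide glutathione to reactive molecules, which makes these molecules soluble and ready for export. The alpha, mu, pi and theta enzymes work in the cytosol, the kappa enzyme in mitochondria and peroxisomes, and Mgst1 sits in the endoplasmic reticulum and outer mitochondrial membranes. Gsta4 is known for its activity on 4-hydroxynonenal, an aldehyde formed when membrane lipids are oxidised, and theta-class enzymes act on small halogenated and sulphate compounds. Several family genes are known targets of the stress-activated factor Nrf2, which binds the antioxidant response element.

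Short runs of DNA near the gene starts are shown first, searched for that element and for 2 common promoter motifs. RefSeq windows of the GRCr8 assembly, from 250 bases before to 50 bases after the start site, were held for 8 of the 10 genes, Gstt1 and Gstt2 being without one. The antioxidant response element core, TGACNNNGC read on both strands, was in 12.1% of 33469 such rat windows and in 1 of the 8, that of Gstp1. The CCAAT box, CCAAT on both strands, was in 37.5% of windows and in 5 of the 8, and the GC box, GGGCGG on both strands, was in 33.1% of windows and in 5 of the 8. Gstt3 held 2 CCAAT boxes and neither of the other motifs. The runs below are written along the gene's own strand with the motif in capitals, where ATTGG is CCAAT on the opposite strand, and were picked to show Gstt3, the sole antioxidant element, and the pair of genes whose levels were most alike. The letters TGACTCA in Gstp1 are also those of an AP-1 site, the Gstm2 run also holds its second CCAAT box in lower case, and the Gstp1 run ends within its GC box.
Gstt3, chr20:12874535-12874559, plus strand, CCAAT box 73 bases before the start: tcctccgctgATTGGcccaaagttc
Gstt3, chr20:12874560-12874584, plus strand, CCAAT box 48 bases before the start: tcctgaacatCCAATgggagggaag
Gstp1, chr1:210769748-210769776, minus strand, antioxidant element 61 bases before the start: tccactgtgtTGACTCAGCatccggggcg
Gstm2, chr2:198316979-198317003, minus strand, CCAAT box 76 bases before the start: ggccaatggtCCAATagaaagccat
Gstk1, chr4:72085563-72085587, plus strand, CCAAT box 41 bases before the start: gcagactgcgATTGGctgcttgctc
These matches describe letters only, and no binding was measured. Gstm1 and Gstm2 each held 2 CCAAT boxes close together. RefSeq also lists other starts for Gstt3, Gstp1 and Gstk1, so these runs lie inside the longest gene models.

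The libraries held between 14812541 and 19732588 counts. The tissue label was checked against marker genes. The 4 measured cardiomyocyte markers (Myh6, Tnnt2, Tnni3 and Actc1) summed to between 27725 and 35696 CPM (counts scaled to library size) in every rat. Of the hepatocyte markers, Alb was at up to 0.688 CPM and Apoa1 at up to 0.577 CPM, but Ttr was at 7.44 to 12.6 CPM. Single libraries stood apart in some genes. HF rat 1 had 35.9 CPM of the T cell marker Cd3e, against at most 3.46 in the other 11 rats, and 35.8 CPM of Slc7a11, the cystine carrier that feeds glutathione synthesis, against at most 0.778. Ms4a1, another lymphocyte marker, was at 0.459 CPM in HF rat 1 and 0.750 in Sham rat 1. BAIBA rat 1 had 40.3 CPM of the scar marker Postn, against at most 18.1 in the other rats. Its 4 macrophage markers summed to 134 CPM, against at most 88.6. These genes were singled out after their values were seen. Some values of Gstt3 and Gsta4 are given with and without HF rat 1, and others only as a range over fits that include leaving it out.

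Per kilobase of transcript, Gstm2 and Gstp1 were the most abundant of the 10 genes. Gstm2 averaged 98.9 ± 13.3 FPKM (fragments scaled for transcript length and library size; SD, n = 12 rats), 30.5% of the summed level of the 10 genes, and Gstp1 averaged 84.6 ± 12.6 FPKM, or 26.2%. A middle tier followed, with Gsto1 at 30.9 ± 3.50, Gstk1 at 30.3 ± 3.71, Gstm1 at 28.6 ± 3.98 and Gsta4 at 26.7 ± 5.24 FPKM, and then Mgst1 at 15.2 ± 2.68 FPKM. The theta class was lowest, with Gstt2 at 3.36 ± 1.60, Gstt3 at 2.60 ± 1.42 and Gstt1 at 1.83 ± 0.438 FPKM. The steps from Gstp1 down to Gsto1, from Gsta4 to Mgst1 and from Mgst1 to Gstt2 were present in 12 of 12 rats and that from Gstm2 to Gstp1 in 10, whereas neighbours within the middle tier, and within the theta class, changed places between rats. Among 15583 genes with enough counts, Gstm2 lay at percentile 96.7 of the FPKM levels and Gstt1 at percentile 28.0.

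**Figure D1:**
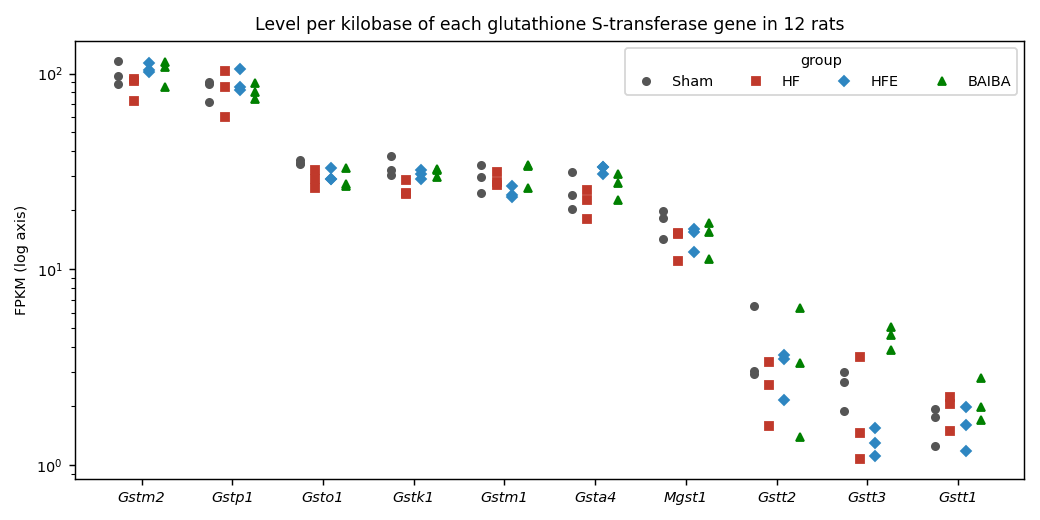
Level of each glutathione S-transferase gene in FPKM (log axis), ordered by the mean over 12 rats, with 1 symbol per rat and the 4 groups drawn side by side. Gstm2 and Gstp1 lie above the middle tier in every rat, and the 3 theta-class genes lie below Mgst1 in every rat.

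The summed FPKM of the 10 genes hardly separated the groups. It was 333 ± 34.4 in Sham, 295 ± 40.3 in HF, 336 ± 12.6 in HFE and 327 ± 24.6 in BAIBA (SD, n = 3 rats each), and the ranges of the groups overlapped, with HF spanning 249 to 326 and BAIBA spanning 302 to 351. The HF and HFE ranges overlapped as well, since the lowest HFE rat was at 322.

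Gstt3 (ENSRNOG00000001242), a theta-class enzyme, had the largest BAIBA against HFE difference of the 10 genes, which is the difference it was chosen by. The Sham rats had 4.79, 5.25 and 3.28 CPM, the HF rats 6.08, 2.64 and 2.01 CPM, the HFE rats 2.73, 2.42 and 2.09 CPM, and the BAIBA rats 8.48, 7.18 and 8.20 CPM. Every BAIBA rat was above every rat of the other 3 groups, every HFE rat was below every Sham rat, and the HF rats were split, with rat 1 above the Sham range and rats 2 and 3 in or just below the HFE range. These levels came from between 33 and 152 reads per rat. In the comparison that chose the gene, the level was higher in BAIBA than in HFE by 1.72 on the log2 scale (SE 0.20). Because the gene was chosen by this difference, its size may be overstated and its SE too small. The threshold used throughout was an adjusted p under 0.05 with an absolute log2 fold change over 1. It was passed there by 12 of 14844 genes, or 0.0808%, and nothing is read from Gstt3 being among them, since that is how it was chosen.

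The other comparisons of Gstt3 were less clear. BAIBA was higher than HF by 1.15 (log2 scale, SE 0.40), or by 1.78 without HF rat 1, and HFE was lower than HF with a log2 fold change of -0.57 (SE 0.43), or 0.06 without HF rat 1. The low HFE level relative to HF therefore rested on that single rat. Tests were kept for comparisons that do not use the BAIBA against HFE difference. Those that average the HFE and BAIBA groups still share these rats, and their spread, with the choice of the gene. HF against Sham gave a log2 fold change of -0.32 (SE 0.43, edgeR adjusted p = 0.927), the mean of all infarcted groups against Sham gave -0.12 (SE 0.28, edgeR adjusted p = 0.965), and the mean of both treated groups against HF gave 0.29 (SE 0.31, edgeR adjusted p = 0.838). None passed the threshold, and the interval of the last reached from -0.37 to 0.96, so a difference was not detectable at this spread between rats. Without HF rat 1 the HF against Sham value was -0.94 and the treated against HF value 0.92.

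**Figure D2:**
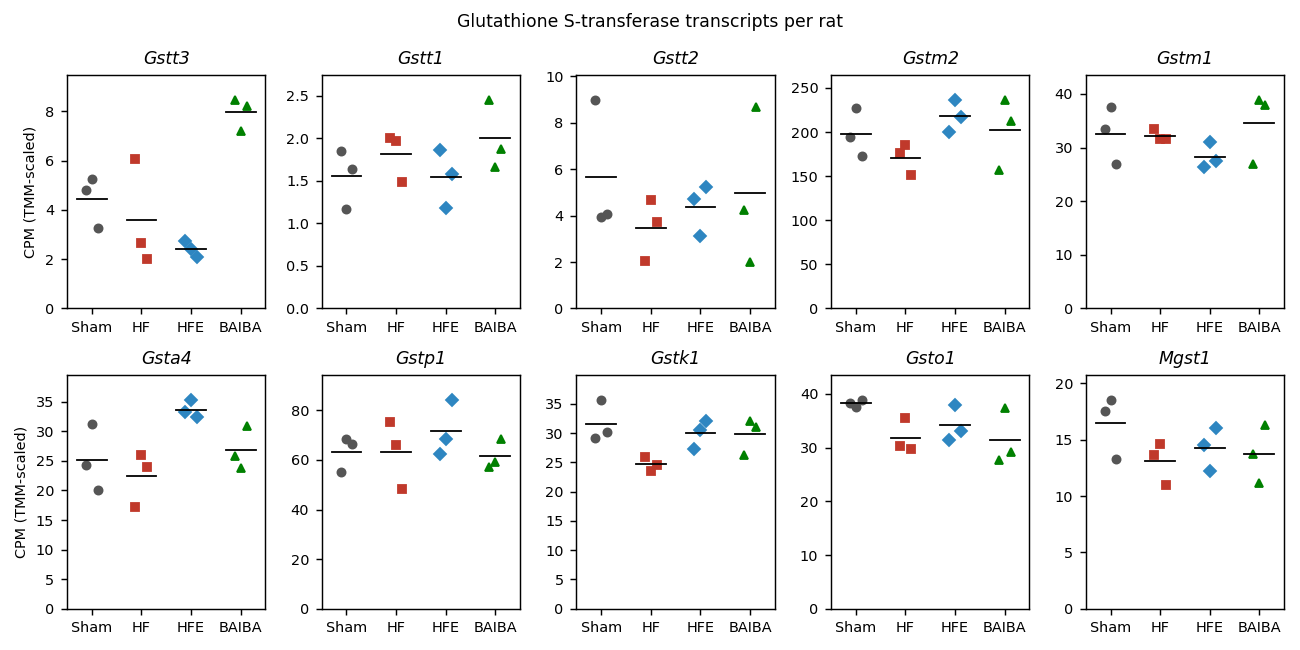
CPM of each gene in each rat (symbols), by group, with the mean of the 3 rats as a line and a separate linear axis from 0 for each gene. The BAIBA symbols of Gstt3 lie above all others, whereas those of Gstt1, its neighbour, overlap with every other group.

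Transcripts of the mesothelium, the cell sheet that covers the heart, moved with Gstt3. Msln, which encodes the surface protein mesothelin, was at 36.1, 1.03 and 10.3 CPM in the BAIBA rats, at 5.33, 0.0613 and 0 CPM in the HF rats, at 0.0666, 0 and 0 CPM in the HFE rats, and at 0.750, 0.843 and 2.50 CPM in the Sham rats. Upk3b, a second mesothelial gene, was at 10.5, 0.0642 and 6.21 CPM in the BAIBA rats, at 2.12, 0 and 0.106 CPM in the HF rats, at 0 in each of the HFE rats, and at 0.231, 0.259 and 0.591 CPM in the Sham rats. Both were highest in BAIBA rats 1 and 3, and HF rat 1, the HF rat with the most Gstt3, had the most of both in its group. The third marker on the list, Wt1, was between 14.5 and 23.6 CPM without that order. The 3 markers together summed to between 23.9 and 64.4 CPM in BAIBA, against 17.9 to 21.7 in Sham, 21.6 to 23.7 in HF and 19.0 to 23.5 in HFE. BAIBA rat 2 had 7.18 CPM of Gstt3 at 1.03 CPM of Msln, less Msln than Sham rat 3, whose Gstt3 was 3.28 CPM. The part of mesothelial tissue in the Gstt3 levels was not tested.

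**Figure D3:**
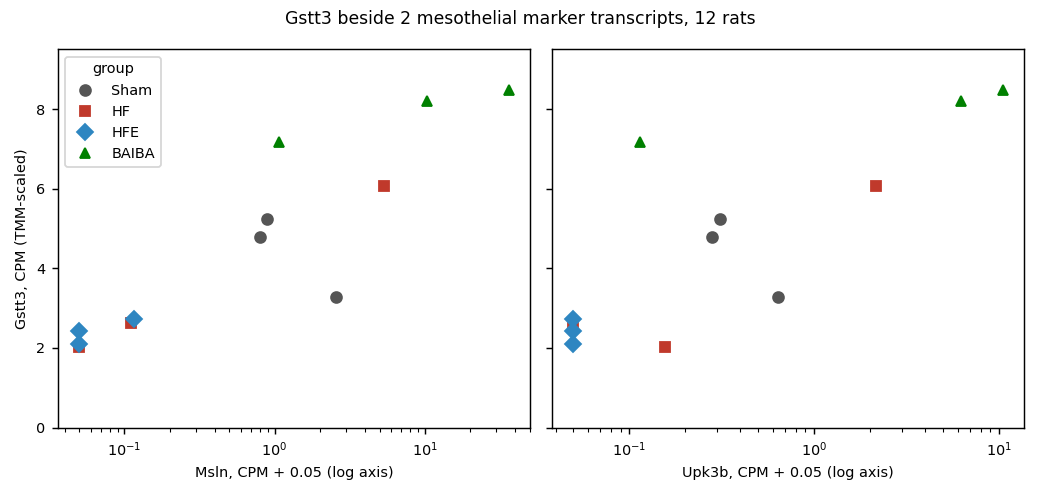
Gstt3 in CPM against the mesothelial transcripts Msln (left) and Upk3b (right) in CPM plus 0.05 on log axes, with 1 symbol per rat. BAIBA rats 1 and 3 lie at the upper right of both panels, the HFE rats lie at the lower left, and BAIBA rat 2 is at 7.18 CPM of Gstt3 with little of either marker.

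Among 12417 genes with a symbol and a mean of at least 1 CPM, the 5 whose log2 CPM followed Gstt3 most closely over the 12 rats were Fam149a (Pearson r = 0.910), Ppl (0.887), Msln (0.886), Slc50a1 (0.875) and Vcam1 (0.866). Ppl encodes periplakin, a linker of epithelial junctions to the cytoskeleton, Slc50a1 a sugar transporter, and Vcam1 an adhesion molecule of activated endothelium. The levels of Ppl averaged 28.1 ± 7.42 CPM in BAIBA, 10.9 ± 1.31 in HFE, 16.2 ± 7.22 in HF and 17.5 ± 2.18 in Sham (SD, n = 3), the same order of highest and lowest group as Gstt3. The 3 most opposite genes were Papln (r = -0.929), which encodes an extracellular matrix glycoprotein, Col4a2 (-0.911), a chain of basement membrane collagen, and Btbd10 (-0.904). Col4a2 averaged 145 ± 19.0 CPM in BAIBA and 239 ± 16.0 in HFE. These correlations describe 12 libraries that share group differences and were ranked over many genes, so each is given without a p.

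The other theta-class genes did not share the Gstt3 pattern. Gstt1 (ENSRNOG00000049771), which acts on small halogenated compounds, was at 1.85, 1.17 and 1.64 CPM in Sham, 2.01, 1.96 and 1.48 in HF, 1.86, 1.18 and 1.58 in HFE, and 2.45, 1.67 and 1.87 in BAIBA. All 4 groups overlapped, at only 17 to 44 reads per rat. Gstt2 (ENSRNOG00000052415) was at 9.00, 3.95 and 4.07 CPM in Sham, 2.06, 4.66 and 3.71 in HF, 4.73, 3.11 and 5.26 in HFE, and 4.24, 1.99 and 8.68 in BAIBA. Single rats set its means, Sham rat 1 and BAIBA rat 3 each standing well above the rest of its group. The within-group SD of its log2 CPM was 0.70, at percentile 90.6 of all genes, against 0.45 for Gstt3, 0.28 for Gstt1 and a median of 0.24 over all genes. The HF against Sham log2 fold change of Gstt2, -0.72 (SE 0.43, edgeR adjusted p = 0.822), did not pass the threshold. It rested on Sham rat 1, without which it was -0.20, and it was -0.45 without HF rat 1.

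The theta genes lie side by side on chromosome 20, in the RefSeq order Gstt2, Gstt4, Gstt1, Gstt3, Ddt, Cabin1 and Susd2. Gstt4 was at 0 counts in 11 rats and at 1 count in HFE rat 2, and Mmp11, before the cluster, had no count. Ddt, which encodes a relative of the cytokine MIF, was at 54.3, 54.2 and 59.5 CPM in HFE, above the HF rats at 44.0, 45.8 and 50.7 and above the BAIBA rats at 42.7, 40.8 and 49.0. Its HFE against HF log2 fold change was 0.26 (SE 0.09, edgeR adjusted p = 0.627), and its BAIBA against HFE difference was -0.34, opposite in sign to that of Gstt3. Cabin1, a calcineurin inhibitor, differed by -0.05 and Susd2, a membrane protein, by -0.01 between BAIBA and HFE. None of the 3 neighbours passed the threshold in any of the 6 comparisons. A RefSeq non-coding gene lies within the Gstt3 span, and since the sources used here do not say how strand was counted, reads of the pair cannot be told apart.

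**Figure D4:**
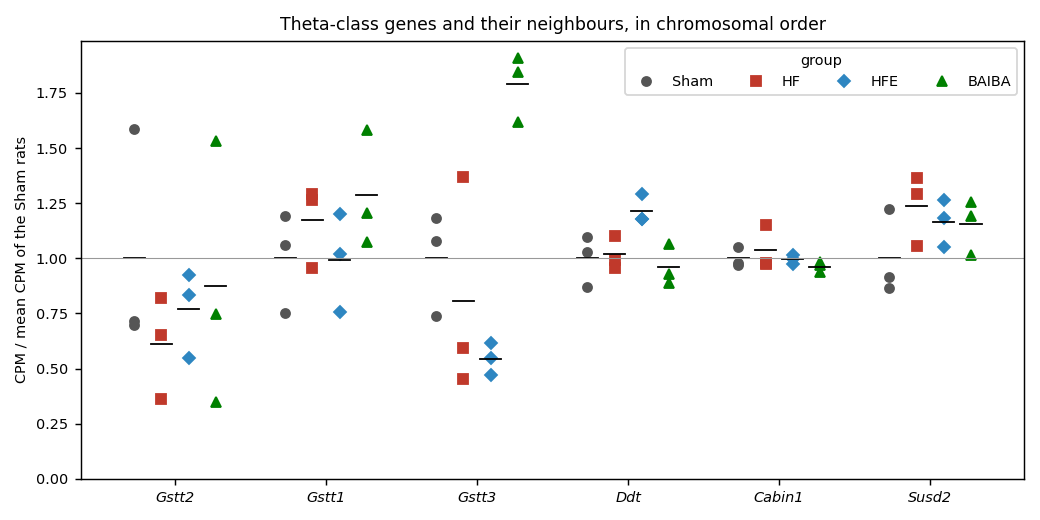
CPM of the theta-class genes and 3 neighbours in RefSeq order along chromosome 20, each divided by the mean of its Sham rats (grey line at 1), with 1 symbol per rat and group means as black lines. Gstt3 stands out in the BAIBA rats, whereas Gstt1, Ddt, Cabin1 and Susd2 overlap between BAIBA and Sham.

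Infarction alone was not accompanied by a member past the threshold. In HF against Sham, 0 of the 10 genes passed by edgeR or by DESeq2, and 2 had an unadjusted p under 0.05. Over all 14957 genes 0% passed by edgeR, 6% had an unadjusted p under 0.05 and 11.8% had no overlap between the groups. DESeq2 called 24 genes. The 2 were also the members whose groups did not overlap, Gstk1 and Gsto1, both lower in HF. Gstk1 (ENSRNOG00000016484), the mitochondrial and peroxisomal enzyme, was at 29.1, 35.7 and 30.1 CPM in Sham and at 25.9, 23.6 and 24.5 in HF. Its log2 fold change was -0.36 (SE 0.11, edgeR adjusted p = 0.805). Gsto1 (ENSRNOG00000028746), an omega-class enzyme that reduces dehydroascorbate and arsenic compounds, was at 38.3, 37.6 and 38.9 CPM in Sham and at 30.2, 35.5 and 29.8 in HF, with a log2 fold change of -0.27 (SE 0.10, edgeR adjusted p = 0.805). The Sham rats lay close together and above the HF rats. Over the 10 members the median log2 fold change was -0.24, with 8 below 0, and over all genes tested it was 0.01. The 4 cardiomyocyte markers together were also lower, at 28140 to 30084 CPM in HF against 34271 to 35696 CPM in Sham. Myh6 was the 1 of the 4 without overlap, averaging 12184 CPM in HF and 18673 CPM in Sham. The other markers lay close together, Tnnt2 averaging 6718 CPM in HF and 6740 in Sham and Tnni3 2770 and 2858. Actc1 was higher in HF, at 7232 against 6829 CPM. The part of cardiomyocyte content in the Gstk1 and Gsto1 levels was not tested.

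When all infarcted groups were set against Sham, the differences were smaller. Again 0 of 10 members passed by either tool, and 0% of 15617 genes passed by edgeR, while DESeq2 called 8 genes. Gsto1 was the 1 member with an unadjusted p under 0.05 (background 6.35%), with a log2 fold change of -0.24 (SE 0.10, edgeR adjusted p = 0.779). HFE rat 2, at 37.9 CPM, reached into the Sham range. No member was without overlap, against 1.05% of all genes. Mgst1 (ENSRNOG00000007743), the membrane enzyme, was at 17.5, 18.5 and 13.3 CPM in Sham, 13.6, 14.7 and 11.0 in HF, 14.6, 12.3 and 16.0 in HFE, and 13.7, 11.2 and 16.3 in BAIBA, and its log2 fold change of -0.27 (SE 0.15) had an edgeR adjusted p of 0.822. The median over the 10 members was -0.08, and over all genes 0.01.

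Exercise after infarction went with higher levels of Gsta4, Gstm2 and Gstk1 in every rat, though none passed the threshold. HF against Sham, HFE against HF, BAIBA against HF and treated against HF all use the same HF rats. A low level in those rats enters the first as a fall and the others as a rise, so these are not separate results. In HFE against HF, 0 of the 9 members other than Gstt3 passed by edgeR or DESeq2. The background was 0% of 14938 genes by edgeR and 22 genes by DESeq2. Gsta4, Gstm2 and Gstk1 had an unadjusted p under 0.05 (background 7.62%). The 3 were higher without overlap and Gstm1 was lower without overlap, 4 of these 9 members against 14.4% of all genes. Gsta4 (ENSRNOG00000030449), the 4-hydroxynonenal enzyme, was at 17.3, 25.9 and 24.0 CPM in HF and at 33.2, 35.3 and 32.4 in HFE. The HFE rats were above all HF, Sham and BAIBA rats, whose highest value was 31.2, and the log2 fold change against HF was 0.59 (SE 0.15, edgeR adjusted p = 0.627). HF rat 1 was the lowest HF rat. Across the alternative fits, those leaving out each rat included, the value was 0.43 to 0.70. Gstm2 (ENSRNOG00000018937), the most abundant member, was at 177, 185 and 151 CPM in HF and at 201, 237 and 217 in HFE, with a log2 fold change of 0.35 (SE 0.11, edgeR adjusted p = 0.627), and its HFE and Sham rats overlapped.

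Gstk1 in the HFE rats was at 27.3, 30.6 and 32.1 CPM, above HF by 0.28 on the log2 scale (SE 0.10, edgeR adjusted p = 0.627) and within reach of the Sham values. Gstm1 (ENSRNOG00000029726), the other mu-class enzyme, went the opposite way, with 33.4, 31.7 and 31.5 CPM in HF and 26.4, 31.1 and 27.4 in HFE, a log2 fold change of -0.19 (SE 0.10, edgeR adjusted p = 0.685). The gap between the lowest HF and the highest HFE rat was narrow. Mu-class genes are close in sequence, and how reads matching several of them were counted is not given in the sources used here, so the split between Gstm1 and Gstm2 is uncertain. The median log2 fold change of the 9 members was 0.18, and that of all genes -0.01. Cardiomyocyte markers moved alongside: 3 of the 4 were higher in each HFE rat than in each HF rat, Tnni3 by 0.34 (log2 scale, SE 0.11), Tnnt2 by 0.27 (SE 0.09) and Actc1 by 0.21 (SE 0.07), while Myh6 was at -0.12 (SE 0.15). Their sum was 28172 to 33006 CPM in HFE and 28140 to 30084 CPM in HF. The part of cardiomyocyte content in the Gsta4, Gstm2 and Gstk1 levels was not tested.

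With BAIBA, the members other than Gstt3 differed less from HF. In BAIBA against HF 0 of these 9 members passed by edgeR or DESeq2 (background 0% of 15039 genes by edgeR and 31 genes by DESeq2). Gstk1 was the 1 member with an unadjusted p under 0.05 (background 5.55%) and the 1 without overlap (background 11.4%). Gstk1 was at 26.3, 32.0 and 31.0 CPM in the BAIBA rats, with a log2 fold change of 0.27 (SE 0.12, edgeR adjusted p = 0.851). BAIBA rat 1, at 26.3 CPM, was just above the highest HF rat, at 25.9. Gsta4 was at 25.8, 23.7 and 30.8 CPM and Gstm2 at 157, 236 and 213 CPM in BAIBA, both overlapping HF, with log2 fold changes of 0.26 (SE 0.18, edgeR adjusted p = 0.857) and 0.24 (SE 0.17, edgeR adjusted p = 0.856). Without HF rat 1, the lowest HF rat for Gsta4, the Gsta4 value was 0.10. The median over the 9 members was 0.14, and over all genes -0.01.

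Taking the HFE and BAIBA groups together against HF, 0 of 10 members passed by edgeR or DESeq2. The background was 0% of 15617 genes by edgeR and 7 genes by DESeq2. An unadjusted p under 0.05 was present for 3 members (background 7.81%), namely Gsta4, Gstm2 and Gstk1. Gstk1 was the 1 member without overlap, the 6 treated rats lying above the 3 HF rats, against 3.04% of all genes. Its log2 fold change was 0.27 (SE 0.10, 95% confidence interval 0.07 to 0.48, edgeR adjusted p = 0.580). Gsta4 gave 0.42 (SE 0.16, edgeR adjusted p = 0.612), or 0.27 without HF rat 1, and Gstm2 gave 0.29 (SE 0.13, edgeR adjusted p = 0.638). The cardiomyocyte marker Tnni3 was likewise higher in each treated rat than in each HF rat, by 0.28 (log2 scale, SE 0.10). Tnnt2 and Myh6 overlapped between the treated and HF rats. Actc1 was at 5153 to 6184 CPM in BAIBA, below the HF rats at 7009 to 7399, and at 8100 to 8657 in HFE. The part of cardiomyocyte content in these levels was not tested. Across the 12 rats Gstk1 and Gstm2 were the most alike pair of members (r = 0.758, a description over rats of 4 groups), and Gstk1 had the smallest within-group spread of the family, an SD of 0.13 in log2 CPM at percentile 17.9 of all genes.

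Gstp1 (ENSRNOG00000018237), the second most abundant member and a regulator of stress kinases as well as a conjugating enzyme, showed no ordered difference. It was at 55.2, 68.5 and 66.3 CPM in Sham, 75.5, 66.2 and 48.5 in HF, 62.4, 68.4 and 84.2 in HFE, and 57.3, 59.2 and 68.4 in BAIBA. The HF rats alone spanned more than the whole range of the Sham and BAIBA rats. Its log2 fold changes lay between -0.04 and 0.18 in the 5 tested comparisons, and the interval in treated against HF was -0.24 to 0.37.

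**Figure D5:**
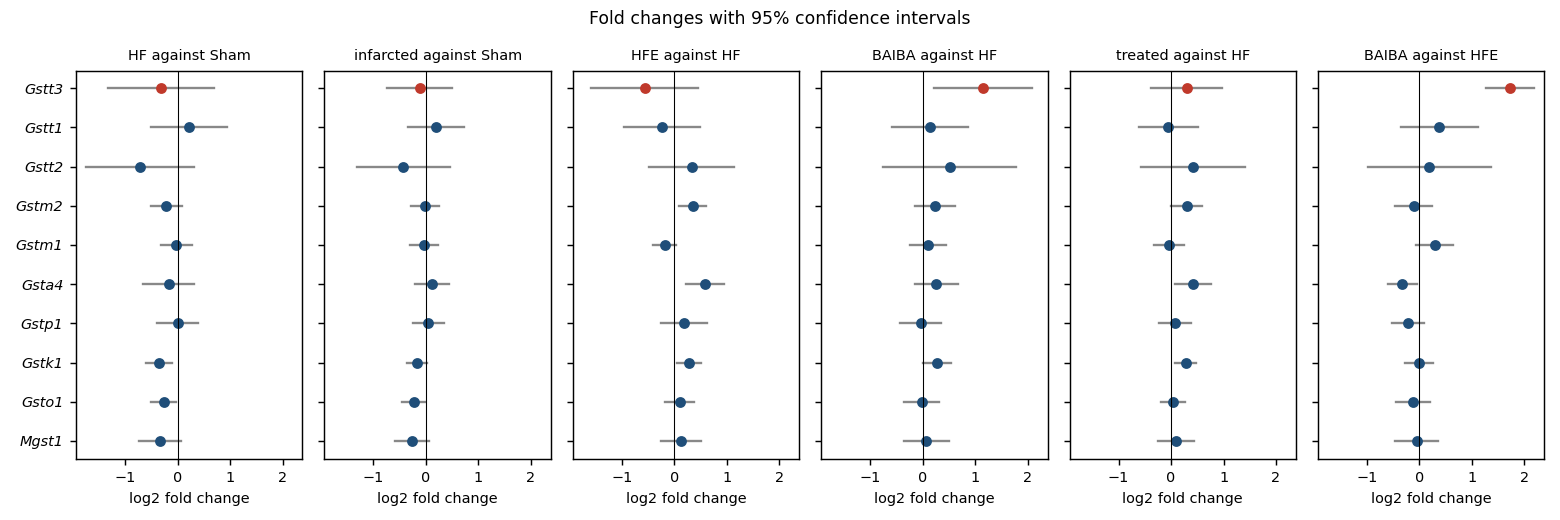
Log2 fold changes of the 10 genes (points, Gstt3 in red) with 95% confidence intervals (lines) in 6 comparisons. Intervals of Gstt2 and Gstt3 are wide in most panels. Gstk1 lies below 0 in HF against Sham and above 0 in treated against HF, panels that use the same HF rats. The BAIBA against HFE panel, where Gstt3 lies at 1.72, is the one that chose Gstt3. The Gstt3 intervals there, in HFE against HF and in BAIBA against HF are no test.

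Between BAIBA and HFE the other members are given as values. Gsta4 was lower in each BAIBA rat than in each HFE rat, with a log2 fold change of -0.33 (SE 0.12), and Gstt1 and Gstm1 were 0.38 (SE 0.32) and 0.29 (SE 0.15) higher with overlapping groups. Non-overlap was present for 15.5% of all genes and an unadjusted p under 0.05 for 9.57% in this comparison. From these counts nothing is read about the family, since the comparison chose Gstt3.

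Genes of the wider glutathione pathway passed the threshold in none of the 5 tested comparisons by edgeR. The lists held 20 further family genes (17 found in the table, 9 with enough counts in infarcted against Sham), 16 genes of glutathione synthesis and turnover (15 found, 12 tested) and 11 of conjugate export and aldehyde removal (11 tested). In infarcted against Sham, 1, 2 and 1 genes of these lists had an unadjusted p under 0.05, where 6.35% of all genes did. Gstz1, the zeta-class enzyme of tyrosine breakdown, was at 58.0, 103 and 58.8 CPM in Sham and at 40.7, 32.3 and 27.0 in HF. Its groups did not overlap, and the HF against Sham log2 fold change of -1.14 (SE 0.26) was larger in size than that of any of the 10 members, with an edgeR adjusted p of 0.767. In infarcted against Sham it gave -0.86 (SE 0.23, edgeR adjusted p = 0.740), and HFE rat 3, at 60.9 CPM, overlapped Sham. Gdap1, a mitochondrial relative of the family, had at most 17 counts per rat and an infarcted against Sham value of 0.71 (SE 0.44, edgeR adjusted p = 0.831).

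Dpep1, a membrane dipeptidase that splits the cysteinyl-glycine left from glutathione conjugates, was likewise highest in the BAIBA rats. It was at 16.0, 19.4 and 25.1 CPM in BAIBA and at 9.52, 11.7 and 8.84 in HF, with HFE at 9.32, 11.6 and 7.28 and Sham at 9.75, 8.82 and 8.60. The BAIBA rats were above all others, and the BAIBA against HF log2 fold change was 1.01 (SE 0.20, edgeR adjusted p = 0.752). In infarcted against Sham Dpep1 gave 0.45 (SE 0.17, edgeR adjusted p = 0.755). Lap3, a leucine aminopeptidase, gave -0.25 (SE 0.10, edgeR adjusted p = 0.775) in that comparison. Abcc5, an export pump for organic anions, was higher in every infarcted rat than in every Sham rat, with a log2 fold change of 0.20 (SE 0.06, edgeR adjusted p = 0.740), and Akr1b1, an aldose reductase that clears aldehydes, gave -0.13 (SE 0.08, edgeR adjusted p = 0.830). The genes that make glutathione had log2 fold changes near 0 in infarcted against Sham, at -0.03 for Gclc, -0.13 for Gclm and 0.07 for Gss.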

How the data were processed

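Left ventricular RNA of 12 rats was sequenced from oligo(dT) paired-end libraries. The authors aligned reads with HISAT2, assembled transcripts with StringTie and counted reads per gene with featureCounts. The deposited counts are raw whole numbers, and the authors derived the deposited FPKM from them and the gene lengths. The submitters' processing notes name the build mm9, a mouse assembly, although the gene identifiers are those of rat, so no file coordinates are printed. The counting strand, the annotation release and tool versions are not given in the sources used here. Other deposited tables repeat the same values and add the authors' own comparisons, which were not used. Depth was 14812541 to 19732588 counts per rat, and no pair of replicates was identical.

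Counts were fitted in R 4.3.3 with edgeR 4.0.16 (quasi-likelihood test, TMM factors, filterByExpr, robust) on the 2 groups compared. The contrasts infarcted against Sham and treated against HF came from one fit of all 12 rats. Genes passed with a Benjamini-Hochberg adjusted p under 0.05 over all genes tested and an absolute log2 fold change over 1, which are the limits of the study's methods. The standard error is the log2 fold change divided by the root of the F statistic, and intervals are at 95%. CPM used TMM factors over 12 rats. For correlations, CPM values were put on a log2 scale after a prior count of 2. All 10 members passed the filter in each of the 6 comparisons. The procedure was tested on simulated data.

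The members, gene lists and tests were chosen with earlier results of these data known. From each list the text names genes past the adjusted p, or else the 2 with the lowest unadjusted p in infarcted against Sham, the neighbours of Gstt3, and the 5 most and 3 least similar genes to Gstt3; others are marked as chosen after their values were seen, apart from the synthesis genes Gclc, Gclm and Gss, which were also picked then. Replicate numbers were taken from the labels and join different animals. Same-numbered HFE and BAIBA rats deviated together (r between 0.118 and 0.224 in the 3 pairs), so a fit with the number as a block was run for pairing. No other pair of groups had r over 0.1 in every same-numbered pair, HF and HFE being at 0.018 to 0.032. P-values measure the spread between rats. Alternatives were DESeq2 1.42.0, RLE factors, library totals, no filter, one fit of all rats, the block and each rat left out.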

Additional observations from a re-analysis of the deposited data

How the results depend on the processing

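Counts of members past the threshold stayed at 0 in the 5 tested comparisons under RLE factors, library totals, DESeq2, no filter, the replicate block and each rat left out. When the threshold was replaced by an unadjusted p under 0.05, they were 2 in HF against Sham, 1 in infarcted against Sham, 3 in HFE against HF, 2 in BAIBA against HF (one of them Gstt3, which is not tested there), 3 in treated against HF and 2 in BAIBA against HFE. The count of 1 in BAIBA against HFE, Gstt3, was 0 with library totals and 0 with one fit of all 12 rats, and ranged from 0 to 1 with each rat left out, being 0 without HFE rat 1, 2 or 3 and without BAIBA rat 2 or 3. These values describe the comparison that chose Gstt3 and are no test of it. With the replicate number as a block (the pairing of HFE and BAIBA) the count was 1, and 32 of all genes were called against 12. DESeq2 called 24, 8, 22, 31, 7 and 171 genes in HF against Sham, infarcted against Sham, HFE against HF, BAIBA against HF, treated against HF and BAIBA against HFE, against 0 in the first 5 and 12 in the last by edgeR. Gstp1 in HF against Sham changed sign with library totals (-0.0079) and with the replicate block (-0.017). With each rat left out, these log2 fold changes changed sign within the ranges given, among them Gstt2, whose values with every rat were 0.52 in BAIBA against HF and -0.43 in infarcted against Sham and which turned without BAIBA rat 3 and without Sham rat 1. In HF against Sham they were -0.30 to 0.0089 for Gsta4, -0.13 to 0.092 for Gstm1 and -0.14 to 0.16 for Gstp1. In infarcted against Sham they were -0.016 to 0.29 for Gsta4, -0.15 to 0.068 for Gstm1, -0.091 to 0.096 for Gstm2, -0.041 to 0.11 for Gstp1, -0.65 to 0.078 for Gstt2 and -0.32 to 0.018 for Gstt3. In BAIBA against HF they were -0.16 to 0.067 for Gsto1, -0.20 to 0.11 for Gstp1, -0.034 to 0.25 for Gstt1, -0.16 to 0.89 for Gstt2 and -0.071 to 0.20 for Mgst1. In treated against HF they were -0.090 to 0.041 for Gstm1, -0.034 to 0.12 for Gsto1, -0.093 to 0.22 for Gstp1, -0.18 to 0.033 for Gstt1 and -0.015 to 0.19 for Mgst1. The causes were not tested. Gstt1, at 17 to 44 reads per rat, is the member most limited by depth.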

Other observations

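Family genes beyond the 10 members held further patterns, singled out after their values were seen. Mgst3, a microsomal relative active on lipid hydroperoxides and leukotrienes, averaged 246 FPKM in HFE and 195 FPKM in BAIBA, above Gstm2. It was at 150, 157 and 148 CPM in HFE, at 129, 142 and 140 CPM in HF, at 123, 137 and 143 CPM in Sham and at 121, 112 and 113 CPM in BAIBA. The BAIBA rats were below every other rat, the reverse of Gstt3, and the BAIBA against HF log2 fold change of -0.25 (SE 0.10) had an edgeR adjusted p of 0.851. Gsta6, an alpha-class enzyme, was at 13.6, 16.9 and 14.2 CPM in BAIBA against 10.3, 11.2 and 8.31 in HF and 11.8, 8.51 and 8.29 in HFE, above all of them and above Sham, with a BAIBA against HF log2 fold change of 0.58 (SE 0.17, edgeR adjusted p = 0.851).

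Gstm5, a mu-class gene, was near 0 in 10 rats, at most 0.335 CPM, but at 5.93 CPM in HF rat 3 and at 6.39 CPM in HFE rat 1, from 112 and 96 reads. Gstm6l had no count in any rat, and Gsta2, Gsta3 and Gstm6 had at most 5, 2 and 2 counts.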
